A study of Mus musculus with 12 samples.

Results

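Cytosolic ribosomal protein genes were followed in cultured mouse macrophages that had been left untreated or exposed to Wnt3a, IL-4 or both. The members were the genes of the deposited count table whose Ensembl identifier maps to a protein-coding symbol made of Rpl or Rps and a number, with Rplp0, Rplp1, Rplp2, Rpsa and Fau added and with the Rps6k kinases and the -ps pseudogenes left out. This gave 84 of 48526 genes, of which 50 encode proteins of the large ribosomal subunit and 34 proteins of the small subunit. Rps3a1, in which the last digit marks a gene copy, was counted as a member, whereas Rpl22l1 and Rpl7l1 were kept apart as paralogs. A filter of at least 10 counts in at least 3 libraries left 78 members for testing, 46 of the large and 32 of the small subunit, among 12421 tested genes.

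Cytosolic ribosomal proteins assemble with ribosomal RNA into the particles that translate mRNAs in the cytosol, and a cell needs nearly all of them in equal amounts. Their mRNAs begin with a short run of pyrimidines, the TOP motif, through which nutrient and growth signals passing through the kinase TORC1 switch their translation on or off. Some members also act outside the ribosome: Rpl5 and Rpl11 bind MDM2 when ribosome assembly fails, and in macrophages exposed to interferon-γ Rpl13a leaves the ribosome to repress inflammatory mRNAs.

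Bone marrow-derived macrophages (BMDMs) were grown with the growth factor mCSF from whole marrow of female C57Bl/6J mice, whose age the labels do not give, and were used on day 7. Cells of 3 mice were kept in plain medium (Untreated) or treated for 16 hours with 100 pg/mL IL-4 (IL4), with 100 ng/mL Wnt3a, or with both, so that each mouse gave a sample to every group. The columns labelled Wnt3a and Wnt3a+IL4 could not be used as separate libraries, because for all 48526 genes of every mouse the Wnt3a value was at least the Wnt3a+IL4 value and at most 2 times that value, as when one column holds reads of the other. They were therefore taken apart into a difference (the Wnt3a column minus the Wnt3a+IL4 column) and a remainder (2 times the Wnt3a+IL4 column minus the Wnt3a column). The labels do not tell which of these holds the cells that also received IL-4, and both are called Wnt3a-treated here. The 4 groups compared are thus Untreated, IL4, difference and remainder, with n = 3 mice in each.

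The 12 libraries held between 13342492 and 17453377 counts. The 10 macrophage markers passed the filter in full, with a summed level of 51900 to 59120 CPM (counts scaled to the size of the library by the TMM method) in Untreated, 44810 to 53080 in IL4, 58970 to 69240 in the difference and 58190 to 58700 in the remainder. Of the markers of other cells, 0 of 8 erythroid, 1 of 8 T or NK cell, 2 of 8 B cell and 5 of 8 stromal markers passed, the last summing to 11.1 to 34.6 CPM over the 12 libraries. Summed neutrophil markers, of which 6 of 10 passed and Ly6g was at 3 counts or fewer in every library, lay at 49.0 to 62.1 CPM in Untreated, 65.2 to 76.5 in IL4, 35.9 to 57.3 in the difference and 32.2 to 36.6 in the remainder, and the part of the macrophage and neutrophil markers in the values below was not tested.

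Some members share so much sequence with each other and with pseudogenes that a short read cannot be placed on a single gene. The first 90 coding bases of 3 families of copies, from the GENCODE M21 transcripts of GRCm38 (mm10), show how far apart the copies are. In Rps27l, Rpl36al and Rpl39l the longest coding runs identical to Rps27, Rpl36a and Rpl39 were 11, 24 and 38 bases. Capitals mark the bases that differ from the first gene of each family.
Rps27: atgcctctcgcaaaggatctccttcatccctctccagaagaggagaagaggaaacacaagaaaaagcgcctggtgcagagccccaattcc
Rps27rt: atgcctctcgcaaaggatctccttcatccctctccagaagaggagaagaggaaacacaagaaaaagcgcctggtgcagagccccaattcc
Rps27l: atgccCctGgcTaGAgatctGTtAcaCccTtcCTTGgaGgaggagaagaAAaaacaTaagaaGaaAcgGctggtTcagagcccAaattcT
Rpl36a: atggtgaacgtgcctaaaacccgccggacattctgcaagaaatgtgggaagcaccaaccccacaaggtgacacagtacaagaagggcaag
Rpl36al: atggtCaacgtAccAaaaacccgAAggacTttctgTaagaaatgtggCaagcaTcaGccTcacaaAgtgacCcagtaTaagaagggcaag
Rpl39: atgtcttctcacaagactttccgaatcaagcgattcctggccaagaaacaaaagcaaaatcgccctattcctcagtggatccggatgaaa
Rpl39l: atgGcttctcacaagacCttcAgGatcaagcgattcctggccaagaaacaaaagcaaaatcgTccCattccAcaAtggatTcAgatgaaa

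Rps27 and its retrogene copy Rps27rt were identical over all 255 coding bases, so reads from either coding part cannot be told apart and the counts of both are uncertain. Rps27l, the diverged paralog, differed from Rps27 at 61 of 255 coding bases. On the RPKM scale, which divides the CPM by the length of an annotated transcript in kilobases, Rps27 averaged 3.43 over the 12 libraries, Rps27rt 9.41 and Rps27l 109. In this family the copy with the least shared sequence had the highest level. The order was the same for Rpl36a and Rpl36al, which differed at 39 of 321 coding bases and averaged 3.06 and 32.3 RPKM. It was the reverse for Rpl39 and Rpl39l, which differed at 23 of 156 coding bases and averaged 77.0 and 0.673 RPKM. Rpl39l and Rpl10l are known as copies used in testis and Rpl3l as a copy used in striated muscle. Rpl10l had 1 count in a single library and 0 in the others, and Rpl3l had between 1 and 9 counts a library.

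Over the 84 members, the median share of 50-base stretches of the transcript that also occur in another annotated gene was 58.6%, and 48 members shared at least 50% of them. The members with low levels were mostly those with shared sequence. Of the 32 members with a mean under 10 CPM, 23 shared at least 50% of their stretches, as against 6 of the 25 members with a mean of 100 CPM or more. Across the 84 members, Spearman's rho between the shared share and the RPKM was -0.381, as a description, since the members share libraries and sequence. Rps6, the S6 kinase target of the small subunit, shared 84.6% of its stretches and had only 2 to 12 counts a library. Rps6, Rpl10l, Rpl3l, Rpl23a, Rpl24 and Rps29 were the 6 members that did not pass the filter. How reads with several matches were counted is not given in the sources used here, so a low level of a member is a low number of assigned reads and need not be a low level of its mRNA. The part of shared sequence in the levels was not tested, and Rps29 (35.8% shared) was low with less of it. Rpl21 (26.2% shared, 1.16 RPKM) was also low, but its annotated transcript has 1856 bases, beside a member median of 768. That length enters both figures, and stretches of Rpl21 occur in 82 other genes.

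**Figure D1:**
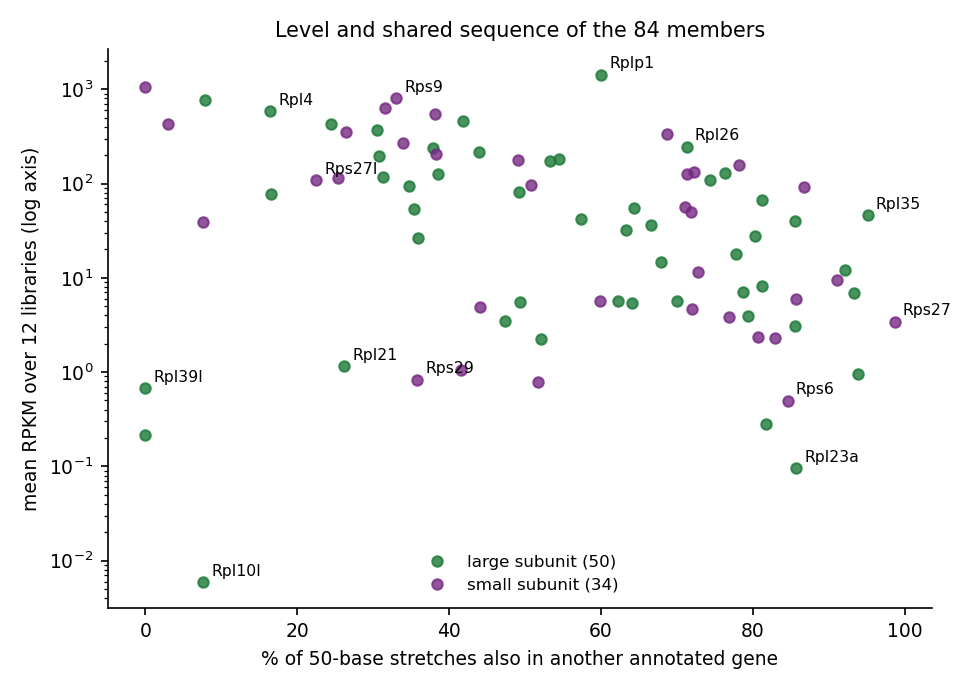
Mean RPKM over the 12 libraries (log axis) against the percent of 50-base stretches shared with another annotated gene, for the 84 members (green, large subunit; purple, small subunit). Rplp1, at 60.0% shared, is the highest point, and Rps6 and Rpl23a are low points to the right of 80%.

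Rplp1, a protein of the stalk that recruits elongation factors, had the highest level, with a mean of 1429 RPKM (1132 to 1751 over the 12 libraries). High levels were also seen for Rps9 with 805 RPKM (676 to 916), Rpl8 with 775 (634 to 923) and Rps15 with 637 (494 to 821). Rplp1 lay above these throughout, whereas the ranges of Rps9, Rpl8 and Rps15 overlapped. The lowest tested members were Rpl39l with 0.673 RPKM, Rps23 with 0.791 and Rpl5 with 0.943, and their ranges overlapped as well. The 10 members with the most counts, led by Rpl4, held 61.2% of all member counts. The 274 pseudogene entries named after ribosomal proteins held 0.00687% to 0.0111% of a library's counts.

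All members together took about 1 count in 100. Their share of the library's counts was 1.07%, 1.12% and 1.02% in the Untreated samples of mouse 1, 2 and 3, and 1.07%, 1.00% and 1.02% in the IL4 samples. It was 0.857%, 0.892% and 0.964% in the difference and 1.02%, 0.830% and 0.922% in the remainder. The difference lay below Untreated and IL4 in all 3 mice, and so did the remainder, by least in mouse 1, where it overlapped the range of the other mice. These shares use total counts without TMM scaling. On that scale the median log2 fold change of all tested genes against Untreated was -0.10 in the difference and -0.13 in the remainder. With TMM scaling, the remainder of mouse 1 had a median over the members of 0.04 against its Untreated sample. The group means were 1.07% ± 0.0491 (SD, n = 3) for Untreated, 1.03% ± 0.0336 for IL4, 0.904% ± 0.0544 for the difference and 0.924% ± 0.0947 for the remainder. Wilson 95% intervals cover counting error only and ran, at the lowest share, from 0.825% to 0.834%. The large-to-small subunit ratio of counts was 1.13 ± 0.0172 in Untreated, 1.14 ± 0.0147 in IL4, 1.17 ± 0.0271 in the difference. It was 1.16 ± 0.0237 in the remainder, and the group ranges overlapped. A lower share in bulk RNA cannot tell fewer ribosomal protein mRNAs per cell from more of other mRNAs, or from a different mixture of cells.

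**Figure D2:**
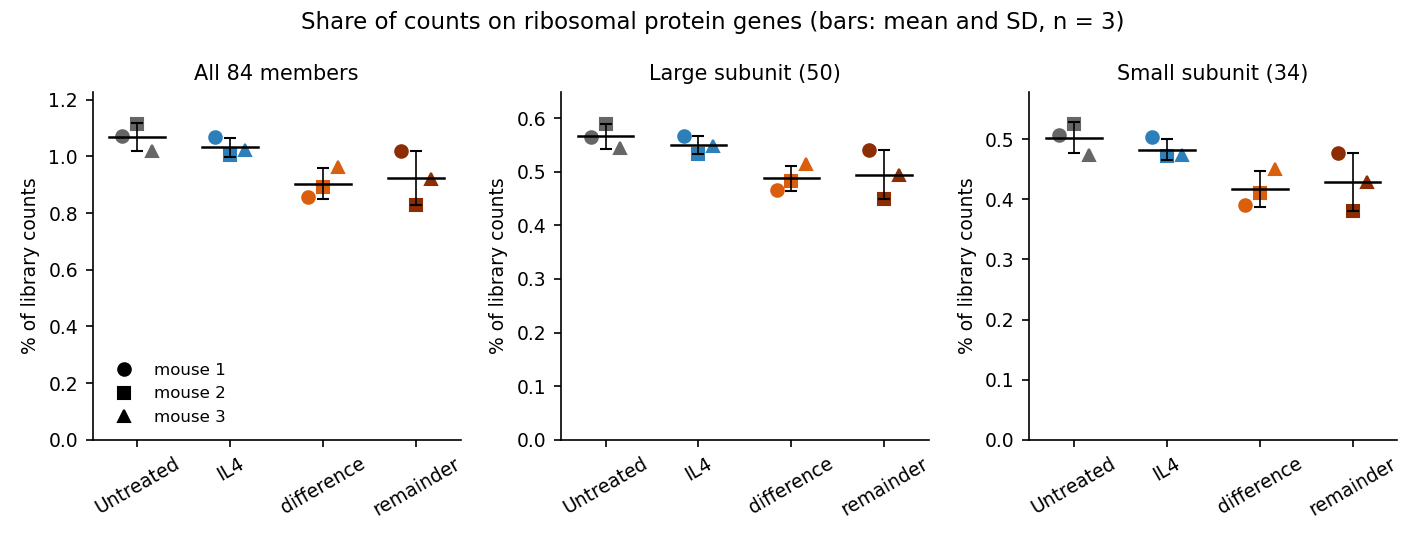
Percent of each library's counts on all members, on the large subunit members and on the small subunit members, by group, with 1 symbol per mouse and bars for the mean and SD (n = 3). The difference lies at 0.857% to 0.964% for all members, below the 1.00% to 1.12% of Untreated and IL4, and the remainder spans both.

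IL-4 alone was compared with Untreated to ask whether the low dose used in the study moved these genes without Wnt3a. In edgeR's quasi-likelihood test with Benjamini-Hochberg adjustment over all tested genes, 0 of 78 members passed an adjusted p of 0.05, where 3.4% of all tested genes did (1.09% lower and 2.31% higher). At an unadjusted p under 0.05 there were 2 members, both lower (2.56%, beside 14.4% of all tested genes in either direction), and DESeq2 called 0. The median log2 fold change of the members was -0.01, beside -0.00 for all tested genes, and 41 of 78 members lay below 0, beside 50.8% of all genes. The lowest adjusted p, 0.12, belonged to Rpl30, a large subunit protein. Rpl30 stood at 80.2, 87.7 and 83.8 CPM in Untreated and at 68.4, 72.4 and 72.4 CPM in IL4. All IL4 samples were below all Untreated samples, with a log2 fold change of -0.24 (SE 0.07). Rpl30 lies over a gene on the other strand in 20.4% of its exon bases, and the strand setting of the counting is not given in the sources used here, so its counts are uncertain to that extent. Such separation downwards was seen in 3 members (Rpl17, Rpl30 and Rps27), beside 9.02% of all tested genes, and upwards in Rpl12 and Rps23, beside 10.8%.

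The difference was compared with Untreated to ask what Wnt3a-treated cells did. The median log2 fold change of the members was -0.20 (quartiles -0.36 and -0.08), beside -0.01 for all tested genes, and 68 of 78 members lay below 0, beside 51.7% of all genes. Of the members, 8 passed the test as lower and 0 as higher, where 11.4% of all tested genes were called lower and 11.8% higher. At an unadjusted p under 0.05 there were 21 members, all lower (26.9%, beside 35.5% of all tested genes in either direction), and DESeq2 called 9. The called share, 10.3% of the members, was near the background for lower calls. Rpl10a, the protein of the L1 stalk at which spent tRNA leaves, had 21.7, 18.2 and 15.6 CPM in Untreated and 11.6, 9.27 and 11.2 CPM in the difference. Its groups did not overlap, and it fell by 0.79 on the log2 scale (SE 0.14, edgeR adjusted p = 0.0011). Rpl10a shares 77.7% of its 50-base stretches with other genes, so its counts are uncertain to that extent. The same holds for Rps18 (86.7%), Rpl30 (76.4%), Rpl26 (71.3%) and Rps28 (50.7%), also called in this comparison. Rpl26, which sits at the exit of the peptide tunnel, had 155, 157 and 132 CPM in Untreated and 93.2, 109 and 123 CPM in the difference, and fell by 0.45 (SE 0.12, edgeR adjusted p = 0.014). Rpl37a, a zinc finger protein of the large subunit, had 84.4, 83.2 and 73.0 CPM in Untreated and 41.0, 61.4 and 68.7 CPM in the difference, and fell by 0.50 (SE 0.16, edgeR adjusted p = 0.035). In both Rpl26 and Rpl37a the difference of mouse 1 was the lowest value and mouse 3 changed least. Rps15 (-0.41, adjusted p = 0.016), Rps28 (-0.39, 0.046), Rpl30 (-0.36, 0.0028), Rps18 (-0.35, 0.028) and Rpl37 (-0.35, 0.034) completed the calls by edgeR. Each of the 8 was lower in 3 of 3 mice. The groups did not overlap in 22 members, all lower, beside 19.6% of all tested genes in that direction. The calls depended on single samples: leaving out the difference of mouse 1 left 2 calls, that of mouse 2 left 4, Untreated of mouse 1 left 5 and of mouse 2 left 4, and leaving out the remainder of mouse 2 gave 13. With the mouse as replicate block the calls of Rpl37a (edgeR adjusted p = 0.063) and Rpl37 (0.058) were lost. Without mouse 1, 2 or 3 altogether there were 3, 3 and 2, and Rpl10a was called in all 24 alternative fits at the 0.05 threshold. Shares of all tested genes called in such fits are not given, so these counts, here and below, have no background.

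The remainder was compared with Untreated in the same way. The median log2 fold change was -0.11, beside -0.02 for all tested genes, with 62 of 78 members below 0, beside 53.3% of all genes. Of the members, 5 passed as lower and 0 as higher, beside 11.7% lower and 13.6% higher of all tested genes, and at an unadjusted p under 0.05 there were 8, all lower (10.3%, beside 36.8% of all genes in either direction). The calls were Rps25 (-0.71, SE 0.25, adjusted p = 0.049), Rpl10a (-0.47, SE 0.14, 0.026), Rps15 (-0.34, SE 0.11, 0.039), Rpl7 (-0.26, SE 0.07, 0.015) and Rpl30 (-0.21, 0.048) in edgeR's test. Rpl7, a large subunit protein whose groups did not overlap, had 215, 222 and 221 CPM in Untreated and 185, 178 and 187 CPM in the remainder. Rps25, a small subunit protein used in initiation on some viral RNAs, had 11.7, 23.6 and 18.2 CPM in Untreated and 12.9, 8.23 and 11.4 CPM in the remainder. It was lower in 2 of 3 mice only, and 24.8% of its exon bases lie over Trappc4 on the other strand. Rps25 shares 72.8% of its 50-base stretches with other genes and Rpl7 53.3%, so their counts are uncertain to that extent. The groups did not overlap in 11 members as lower, beside 16.8% of all tested genes, and in Rpl39l as higher, beside 18.9%. With the mouse as replicate block 2 calls were left, Rpl10a (adjusted p = 0.043) and Rpl7 (0.027). Without mouse 1 there were 14, all lower, and without mouse 3 there were 0. Without mouse 2 there were 4, of which 3 were higher: Rps2, Rpl13a and Rps27l. The shares of all tested genes called in these fits are not given. Leaving out single libraries gave 1 call without the remainder of mouse 3, 2 without Untreated of mouse 2, and 3 without Untreated of mouse 3, IL4 of mouse 1 or 2, the difference of mouse 2 or 3 or the remainder of mouse 2, and in the last case Rps2 and Rpl13a were higher.

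The comparison with the most samples set the 6 Wnt3a-treated libraries (mean of difference and remainder) against the 6 libraries without Wnt3a (mean of Untreated and IL4). Of the 78 members, 14 passed as lower and 0 as higher, beside 16.1% lower and 16.5% higher of all tested genes. The share called lower, 17.9%, was near the background. At an unadjusted p under 0.05 there were 26 members, all lower (33.3%, beside 41.4% of all tested genes in either direction), and DESeq2 called 15. The median log2 fold change was -0.15, beside -0.02 for all tested genes, and 67 of 78 members lay below 0, beside 53.5% of all genes. Rpl10a ranged from 14.7 to 21.7 CPM (median 18.1) without Wnt3a and from 9.27 to 14.1 CPM (median 11.9) with it. It fell by 0.57 on the log2 scale (SE 0.10, edgeR adjusted p = 0.00058). Rpl12, which forms the base of the stalk together with Rplp0, ranged from 6.77 to 9.37 CPM (median 7.90) without Wnt3a and from 4.98 to 6.54 CPM (median 5.82) with it, and fell by 0.45 (SE 0.10, edgeR adjusted p = 0.0038). Rpl10a and Rpl12 were the 2 members in which all 6 treated libraries lay below all 6 others, beside 6.91% of all tested genes.

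Rps15, a protein of the head of the small subunit near the decoding site, ranged from 376 to 469.6 CPM (median 389.5) without Wnt3a and from 282.5 to 380.1 CPM (median 317) with it. It fell by 0.35 (SE 0.08, edgeR adjusted p = 0.0032), and the remainder of mouse 1, at 380.1 CPM, was the single treated library inside the untreated range. Rps28, a small protein of the mRNA exit channel, ranged from 37.5 to 46.1 CPM without Wnt3a and from 30.2 to 44.3 CPM with it, and again the remainder of mouse 1 was the highest treated library. It fell by 0.31 (SE 0.09, adjusted p = 0.018), Rpl26 by 0.31 (SE 0.08, 0.011) and Rpl37a by 0.36 (SE 0.11, 0.023) in edgeR's test. Further calls, chosen for mention after their values were seen, were Rps14 (-0.31), a gene lost in the 5q minus syndrome, Rpl13 (-0.31), Rps18 (-0.27), Rpl32 (-0.25), Rpl37 (-0.24), Rpl7 (-0.17) and Rpl30 (-0.17), with edgeR adjusted p between 0.013 and 0.049. All 14 were lower in 3 of 3 mice. By subunit, 10 of 46 large subunit members (21.7%, median -0.12) and 4 of 32 small subunit members (12.5%, median -0.19) were called lower. Of all tested genes, 16.1% were called lower. Split by sequence, 7 of 33 tested members with under 50% shared stretches (21.2%) and 7 of 45 with at least 50% (15.6%) were called. The median was -0.15 in both sets, and the part of shared sequence in the calls was not tested. Rpl13, with 80.3% shared, was among the called members with at least 50%. Rpl32 overlaps a snoRNA gene in 14.5% of its exon bases, and its counts are uncertain to that extent. With the mouse as replicate block the calls of Rpl13 (edgeR adjusted p = 0.072) and Rpl32 (0.053) were lost. Leaving out mouse 2 or mouse 3 left 3 calls each, and leaving out the remainder of mouse 3 left 8. Rpl10a and Rps15 were called in all 23 alternative fits at the 0.05 threshold, Rpl12 and Rpl26 in 22, and Rpl13 in 8. Without the difference of mouse 1, Rpl39l was called as higher (0.83, edgeR adjusted p = 0.047), against 0.59 (0.25) with it.

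**Figure D3:**
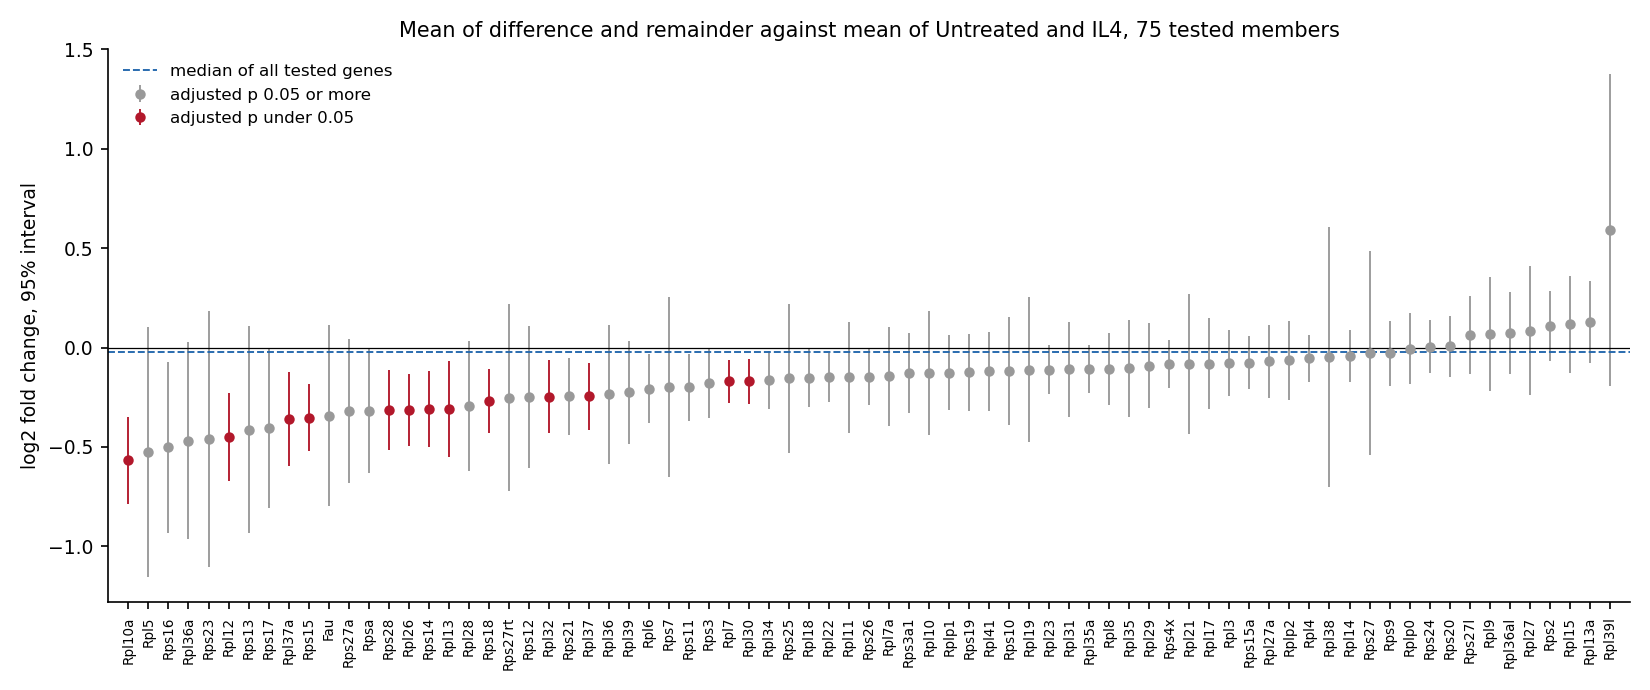
Log2 fold change with its 95% interval for 75 of the 78 tested members, mean of difference and remainder against mean of Untreated and IL4, in order of size (red, edgeR adjusted p under 0.05; dashed line, median of all tested genes at -0.02). The 13 called members shown lie between -0.57 and -0.17, and members with low counts such as Rpl5, Rps23 and Rpl39l have the widest intervals.

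Of the members with a mean of 50 CPM or more, 10 of 40 were called, all lower (25%, median -0.14). Of those under 50 CPM, 4 of 38 tested were called (10.5%), beside 16.1% of all tested genes called lower. That background holds genes of every level, and its share among genes of 50 CPM or more is not given. Some of the most abundant members were not called. Rplp0, the anchor of the stalk, ranged from 551 to 716 CPM without Wnt3a and from 535 to 745 CPM with it, with a log2 fold change of -0.00 and a 95% interval from -0.18 to 0.17. Rps24 (0.00, interval -0.13 to 0.14) and Rps9 (-0.03, -0.19 to 0.14) were likewise not called. Among the other stalk proteins Rplp1 stood at -0.13 (-0.32 to 0.06) and Rplp2 at -0.06 (-0.26 to 0.13). In 46 of the 64 members not called, the 95% interval lay within 0.5 log2 units on either side of 0. For these members the intervals leave no room for a change beyond that size, whereas smaller changes were not resolved with 3 mice.

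Several members were followed for roles they have beside the ribosome, and those named next were not called. Rpl5, which with Rpl11 and the 5S RNA binds MDM2, had a log2 fold change of -0.52 with an interval from -1.15 to 0.10 and at most 3.45 CPM, and Rpl11 of -0.15 (-0.43 to 0.13). Rps27a and Fau, made as fusions to ubiquitin and to a ubiquitin-like protein, stood at -0.32 (-0.68 to 0.04) and -0.34 (-0.80 to 0.11), also at under 5 CPM. Rpsa, known as the laminin receptor, stood at -0.32 (-0.63 to -0.01, adjusted p = 0.11). Rps19, the member most often mutated in Diamond-Blackfan anemia, had 116 to 173 CPM with the ligand and 137 to 172 CPM without, at -0.12 (-0.32 to 0.07). Rpl13a, of the interferon-induced GAIT complex, was on the other side of 0 at 0.13 (-0.08 to 0.34), with 35.7 to 52.3 CPM without Wnt3a and 40.3 to 54.9 CPM with it. Of its exon bases, 35.4% overlap another gene on the same strand, so its counts are uncertain. Of the paralogs, Rps27l stood at 0.06, Rpl36al at 0.08 and Rpl22l1 at 0.11, beside -0.15 for Rpl22 (-0.27 to -0.03, adjusted p = 0.063), and none of them was called.

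The values were also taken mouse by mouse. The median over the tested members of the log2 ratio within a mouse, mean of difference and remainder against mean of Untreated and IL4, was -0.16 in mouse 1, -0.25 in mouse 2 and -0.05 in mouse 3, beside -0.02, -0.01 and -0.02 over all tested genes. Below 0 were 63, 73 and 44 of 78 members. For the difference against Untreated the medians were -0.29, -0.29 and -0.02, and for the remainder against Untreated they were 0.04, -0.30 and -0.09. Mouse 2 was thus low in both Wnt3a-treated libraries, mouse 1 in the difference only, and mouse 3 lay between -0.09 and -0.02. By library, the median deviation of the members from their mean over all 12 libraries was highest in Untreated of mouse 2 (0.17), in the remainder of mouse 1 (0.13) and in IL4 of mouse 1 (0.13), and lowest in the difference of mouse 1 (-0.20) and the remainder of mouse 2 (-0.16), while that of all tested genes stayed between -0.01 and 0.02.

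**Figure D4:**
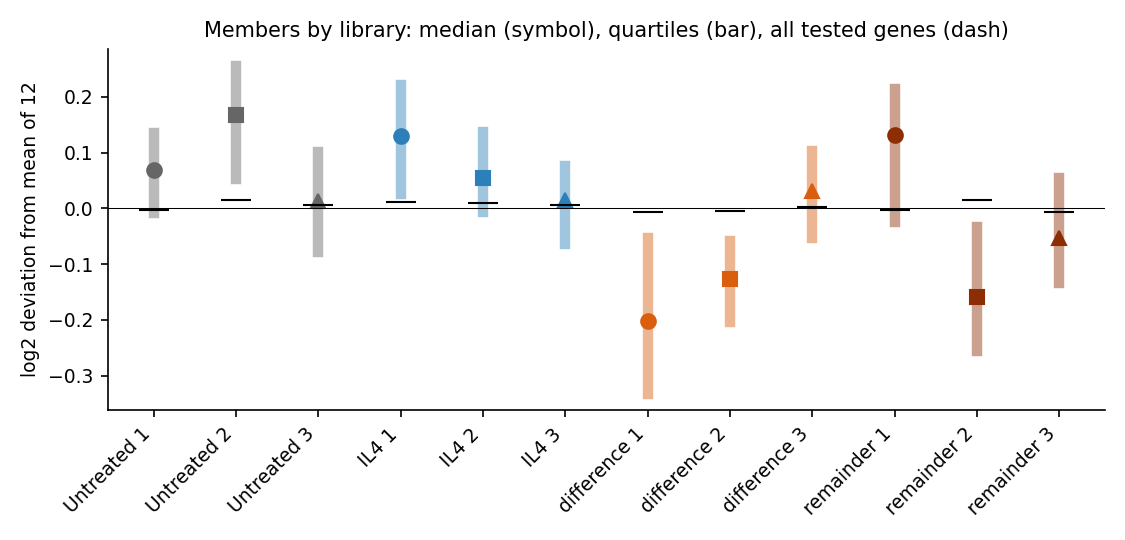
Median (symbol) and quartiles (bar) of the members' log2 deviation from their mean over the 12 libraries, with the median of all tested genes as a dash and 1 symbol shape per mouse. The remainder of mouse 1, at 0.13, lies with the Untreated and IL4 libraries, and the difference of mouse 3, at 0.03, lies among them too.

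The remainder was compared with the difference because one of them also received IL-4. In edgeR's test 0 of 78 members passed, beside 5.25% of all tested genes (2.38% lower and 2.87% higher). At an unadjusted p under 0.05 there were 3 members, 1 lower and 2 higher (3.85%, beside 19.0% of all genes), and DESeq2 called 0. The median was 0.10, beside 0.01 for all tested genes, and 18 of 78 members lay below 0, beside 48% of all genes. Within mice the median was 0.31, -0.02 and -0.05, so it rested on mouse 1. Rpl39, a short protein lining the peptide tunnel, had 24.0, 40.7 and 46.1 CPM in the difference and 52.1, 48.6 and 50.7 CPM in the remainder. The groups did not overlap, with a log2 fold change of 0.45 (interval 0.09 to 0.82, edgeR adjusted p = 0.16). Such separation was seen upwards in 3 members (Rpl10a, Rpl30 and Rpl39) and downwards in 3 (Rpl4, Rpl7 and Rps7), beside 12% of all tested genes upwards and 10.4% downwards. Rps25 went the other way at -0.66 (adjusted p = 0.16), with 21.5, 12.6 and 17.4 CPM in the difference and 12.9, 8.23 and 11.4 CPM in the remainder.

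Against IL4, the remainder had 2 lower and 0 higher members in edgeR's test, beside 9.67% lower and 10.6% higher of all tested genes (20.3% together). At an unadjusted p under 0.05 there were 6, all lower (7.69%, beside 32.1% of all genes in either direction), and DESeq2 called 2. The median was -0.10, beside -0.02, with 59 of 78 members below 0, beside 52.1% of all genes. Rpl12 had 8.14, 8.17 and 9.37 CPM in IL4 and 6.33, 6.26 and 5.38 CPM in the remainder, and fell by 0.51 (SE 0.15, edgeR adjusted p = 0.021). Rpl7 had 225, 207 and 206 CPM in IL4 and 185, 178 and 187 CPM in the remainder, and fell by 0.22 (adjusted p = 0.042). Both were lower in 3 of 3 mice with no overlap, as were 6 members in all, beside 17.5% of all tested genes. With the mouse as replicate block only Rpl12 was left (adjusted p = 0.031). Leaving out mouse 2 or 3, IL4 of mouse 3 or the remainder of mouse 3 gave 0 calls, and leaving out the remainder of mouse 1 gave 4. Untreated of mouse 2 or 3, IL4 of mouse 1 or 2, the difference of mouse 2 and the remainder of mouse 2 each gave 1 when left out. The comparisons with Untreated and with IL4 share libraries with each other and with the comparison of 4 groups, so their calls are not independent.

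Start sites of some called members and of some others are shown because the TOP motif sits there. The windows run from 35 bases before to 15 bases after the start annotated by RefSeq on GRCm38.p6, read along the gene's strand, with the longest run of C and T that reaches within 10 bases of the start in capitals. Rpl10a, Rpl12, Rps18, Rps15 and Rpl37a were called in the comparison of 4 groups, and Rpl4, Rpl13a and Rps9 were not.
Rpl10a, chr17:28328436-28328485 (+): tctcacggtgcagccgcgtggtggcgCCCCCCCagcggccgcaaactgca
Rpl12, chr2:32961677-32961726 (+): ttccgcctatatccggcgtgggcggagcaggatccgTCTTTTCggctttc
Rps18, chr17:33955651-33955700 (-): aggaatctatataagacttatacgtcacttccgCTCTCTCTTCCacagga
Rps15, chr10:80292396-80292445 (+): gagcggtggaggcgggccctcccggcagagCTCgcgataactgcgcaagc
Rpl37a, chr1:72711225-72711274 (+): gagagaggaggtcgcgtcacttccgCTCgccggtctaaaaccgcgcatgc
Rpl4, chr9:64173352-64173401 (+): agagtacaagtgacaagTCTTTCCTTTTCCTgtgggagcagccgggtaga
Rpl13a, chr7:45128731-45128780 (-): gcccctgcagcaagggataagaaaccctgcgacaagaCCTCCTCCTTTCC
Rps9, chr7:3704006-3704055 (+): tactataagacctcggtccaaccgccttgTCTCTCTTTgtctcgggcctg

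A run of at least 6 pyrimidines, C or T on the gene's strand in any order, reached within 10 bases of the start in 40 of 76 promoters of 64 members (52.6%), as against 9592 of all 32851 promoters in the table (29.2%). The TATA box, searched as TATAAA on the same strand between 45 and 15 bases before the start, was found in 0 of the 76, as against 2.14% of all promoters. Among members with a promoter in the table, the run was found in 5 of 9 called and in 33 of 51 other tested members. Rps18 with a run of 11 was called and Rpl4 and Rpl13a with runs of 14 were not, while Rps15 and Rpl37a were called with runs of 3. Rpl10a has a second annotated start in the table with a run of 3. The runs printed for Rpl10a, Rps15, Rpl37a and Rpl4 end before the annotated start, outside the mRNA as annotated. A match of letters is a description of these windows, since an annotated start can lie some bases away from the one used in macrophages.

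The other parts of the protein synthesis machinery, from lists chosen with earlier results of these data known, were set beside the members in the comparison of 4 groups, with no test of a difference between lists. Of 77 tested mitochondrial ribosomal protein genes, which encode the separate ribosome of mitochondria, 22 passed as higher (28.6%, beside 16.5% of all tested genes), with a median of 0.15, beside -0.02, and 11 genes below 0. Mrpl45 ranged from 46.0 to 60.2 CPM (median 47.0) without Wnt3a and from 64.8 to 88.4 CPM (median 73.1) with it, and rose by 0.62 (SE 0.09, edgeR adjusted p = 7.7e-05). Mrpl42 ranged from 19.7 to 24.6 CPM (median 21.9) without and from 27.9 to 37.4 CPM (median 31.4) with Wnt3a, and rose by 0.53 (SE 0.08, 0.00012). The groups did not overlap in either gene.

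Of 83 genes for rRNA synthesis and ribosome assembly, 7 passed as higher (8.43%) and 5 as lower (6.02%), beside 16.5% and 16.1% of all tested genes, with a median of -0.00. Heatr1, needed for transcription and early processing of rRNA, rose by 0.85 (SE 0.06, edgeR adjusted p = 1.2e-07), and Polr1c, a subunit shared by RNA polymerases I and III, rose by 0.40 (0.002). Gnl3, the nucleolar GTPase nucleostemin, fell by 0.29 (0.043) and Rrp1, a factor of large subunit assembly, by 0.25 (0.0033). Of 25 translation factors and other genes with TOP mRNAs, 2 passed in each direction (8% each, against the same background), with a median of -0.04. Vim, which encodes the filament protein vimentin, rose by 0.86 and Pabpc1, the cytoplasmic poly(A)-binding protein, by 0.18, whereas Eef1b2, an exchange factor of elongation, fell by 0.31 and Eif3f, a subunit of an initiation factor, by 0.17, with edgeR adjusted p of 1.4e-07, 0.025, 0.0082 and 0.045. Eef1a1, the main elongation factor, lay at -0.01 (interval -0.14 to 0.12). The 7 tested ribosomal protein-like genes that the rule leaves out lay between -0.13 and 0.11, and Rack1, a scaffold on the small subunit, stood at -0.12 (interval -0.30 to 0.05).

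**Figure D5:**
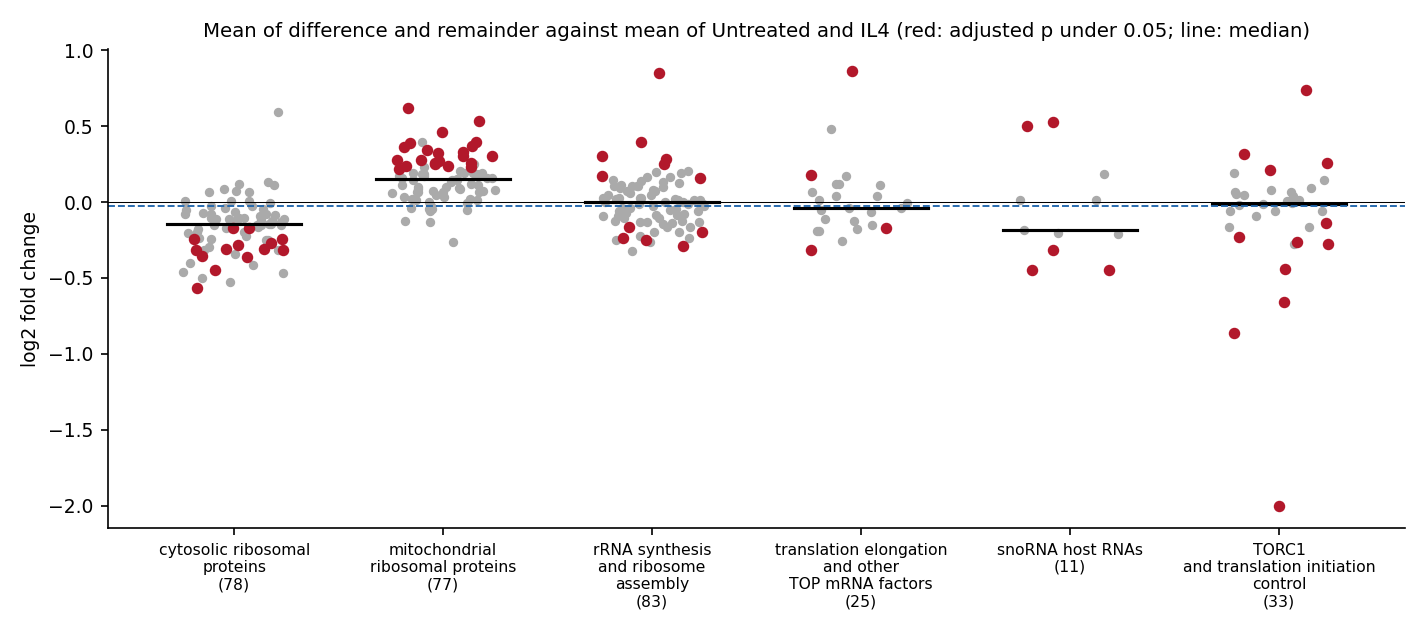
Log2 fold change in the comparison of 4 groups for the tested genes of 6 lists (1 point per gene; red, edgeR adjusted p under 0.05; bar, median of the list; dashed line, median of all tested genes). The cytosolic ribosomal proteins have red points below 0 alone (median -0.15), the mitochondrial ones above 0 alone (median 0.15), and the other lists have both.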

How the data were processed

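RNA-seq counts of 12 BMDM samples, 3 mice in each of 4 groups, were used. The authors deposited raw counts per gene, without normalization. Per the labels and methods, single reads were trimmed with Trimmomatic 0.36, aligned to mm10 with STAR 2.6.0 and counted with HTSeq 0.11.1. The settings for strand and for reads with several matches are not given in the sources used here. The table held 48526 genes, of which 48058 (99%) had a symbol. The Wnt3a and Wnt3a+IL4 columns share reads in each mouse and were resolved into difference and remainder. These parts are computed, not sequenced, and any fault in the resolution enters both.

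Genes passing a minimum of 10 counts in 3 or more libraries were tested by edgeR 4.0.16 under R 4.3.3, with TMM scaling and quasi-likelihood tests, in one model of the 4 groups without a mouse term, and with Benjamini-Hochberg adjustment over all 12421 genes at 0.05. The methods of the study use DESeq2 1.24.0, and DESeq2 1.42.0 was run as an alternative. Levels are TMM-scaled CPM, and RPKM used the length of the lowest-numbered protein-coding transcript in GENCODE M21. Symbols, positions and overlaps came from the same annotation, and promoters from RefSeq (GRCm38.p6), where 64 of 84 members matched. In simulated counts for IL4 against Untreated over 12253 genes, 100 of 100 genes changed 4-fold and 97 of 100 changed 2-fold were recovered. There were 9 false calls of 206 and 0 calls in an unchanged comparison. Changes under 2-fold, such as those of the called members, and effects of the mouse were not simulated.

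The labels give the same mouse to 1 sample of each group, so the samples are paired. Deviations of same-mouse libraries from their group means correlated from -0.417 to 0.454 over all tested genes. Alternatives were the mouse as replicate block, other scalings and filters, DESeq2, only the groups compared, the labelled columns, a stricter threshold, and each mouse or library left out. After the data were seen, 4 alternatives on membership were added: Rpl22l1 and Rpl7l1 included, Rps3a1 left out, and medians over members with under 50% shared stretches or with at least 50 CPM.

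Named members are the 5 highest and 5 lowest called in each comparison with at least 8 CPM in the higher group, the 5 highest and 3 lowest by RPKM, members with known separate roles and paralog pairs. Of each other list the 2 highest and 2 lowest called were named. The members, the lists and the rule were chosen with earlier results of these data known. Values of 3 members are not reported here one by one.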

Additional observations from a re-analysis of the deposited data

How the results depend on the processing

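Across the alternatives run, members were called lower, with the exception of Rps2, Rpl13a and Rps27l in the remainder against Untreated without mouse 2 (Rps2 and Rpl13a also without its remainder), Rpl39l in the comparison of 4 groups without the difference of mouse 1, and the cases of Rpl39 and Rps18 given here. Scaling by total counts moved the median of all tested genes to between -0.13 and -0.01 and raised the numbers of members called to 1 in IL4 against Untreated, 24 in the difference and 14 in the remainder against Untreated, 29 in the comparison of 4 groups and 4 in the remainder against IL4, while the median of the members relative to all genes stayed at -0.19, -0.09 and -0.12 in the difference, the remainder and the 4 groups. The labelled columns, which share reads and so understate the spread, gave 1, 19, 18, 28 and 14 in the same order. With all genes of at least 1 count there were 15 in the difference against Untreated, 2 in the remainder against the difference (1 higher, Rpl39, and 1 lower) and 1 in the remainder against IL4. With the mouse as replicate block there were 6 in the difference against Untreated, 2 in the remainder against Untreated, 12 in the comparison of 4 groups and 1 in the remainder against IL4, and the block changed no other count. With only the groups compared there was 1 in the remainder against Untreated and 1 against IL4. At an adjusted p under 0.01 there were 2, 0, 3 and 0 in the difference, the remainder, the 4 groups and the remainder against IL4, and 0 in each when a log2 fold change of 1 or more in size was also asked for. The cause of these moves was not tested, apart from the construction of the last 2, which can only lower the count. Shares of all tested genes called under each alternative are not given here. The counts of members under the alternatives, in this section and above, therefore cannot be set against a background.

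Leaving out a mouse or a library gave 2 to 13 calls in the difference against Untreated, 0 to 14 in the remainder against Untreated, 3 to 21 in the comparison of 4 groups, 0 to 1 in the remainder against the difference (Rps18, higher, without the remainder of mouse 2), 0 to 4 in the remainder against IL4 and 0 in IL4 against Untreated. Where a group was left with 2 samples, they were taken to vary like the other groups. The share of counts on the members without Rpl4, the member with the most counts, was 0.974% in Untreated, 0.940% in IL4 and 0.815% in the difference. Of the named genes' values under the alternatives, 4509 kept their side of the threshold, 122 lost the call, 65 gained it and 0 changed direction while called. Values that were not called could change sign. At under 5 CPM the 95% intervals of Rpl5 (-1.15 to 0.10) and Rps23 (-1.10 to 0.19) in the comparison of 4 groups were wider than 1 log2 unit. Those of Rpl21 (-0.43 to 0.27) and Rpl27 (-0.24 to 0.41), also under 5 CPM, were narrower than that. The part of depth in these widths was not tested.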

Other observations

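RNAs that host small nucleolar RNAs, many of which carry TOP starts like those of the ribosomal proteins, split in the comparison of the 6 Wnt3a-treated with the 6 other libraries. Of 11 tested, 2 rose and 3 fell by edgeR's quasi-likelihood test, beside 16.5% and 16.1% of all tested genes. Zfas1 ranged from 32.2 to 40.8 CPM (median 35.2) without Wnt3a and from 46.2 to 58.5 CPM (median 50.4) with it, and rose by 0.53 on the log2 scale (SE 0.07, adjusted p = 3.5e-05). Snhg6 rose by 0.50 (0.0022), whereas Snhg17 fell by 0.44 (0.014) and Snhg15 by 0.31 (0.047). Gas5, the host best known for its TOP start, lay at 0.01 (interval -0.20 to 0.22).

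Of 33 tested genes of TORC1 and the control of initiation, 4 rose (12.1%) and 8 fell (24.2%) in the same comparison, beside the 16.5% and 16.1% of all tested genes. Myc, a transcription factor known to drive ribosomal protein and rRNA genes, ranged from 10.7 to 22.9 CPM (median 16.0) without Wnt3a and from 2.12 to 7.20 CPM (median 4.16) with it, and fell (95% interval of the log2 fold change from -2.23 to -1.78, edgeR adjusted p = 4.1e-09). All treated libraries lay below all others, and the values in the difference (2.12, 2.38 and 2.54 CPM) lay below those in the remainder (7.20, 5.77 and 6.76 CPM). Sesn1, a sensor that restrains TORC1, fell by 0.86 (1e-06), and its relative Sesn2 rose by 0.32 (0.0063). Larp1, which binds TOP mRNAs, ranged from 118 to 139 CPM without and from 144.5 to 166 CPM with Wnt3a, and rose by 0.26 (0.002). Whether any of these bears on the ribosomal protein genes was not tested.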
